A study of Homo sapiens with 4 samples.

Results

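The comparison set the IM library of KBM5 cells against the untreated library, CTR, 2 of the 4 libraries of the series, all made with a stranded mRNA kit. KBM5 is an established human line from a chronic myeloid leukemia in blast crisis, and it carries the BCR-ABL fusion kinase. IM is read here as imatinib and DSF as disulfiram, since the labels give only the abbreviations. By its title, the study asked about hitting GPX4 and BCR-ABL together in BCR-ABL-positive leukemia stem cells, and this comparison shows the kinase inhibitor on its own. The other libraries, DSF alone and IM-DSF (written as both), come from the same line and serve only to place the IM to CTR difference. The labels give no dose, no time and 1 library per group, so each difference is between 2 libraries, no p-value is given and the spread between cultures is unknown. Of the 50868 genes in the deposited table, the 11004 whose FPKM averaged 1 or more across all 4 libraries are described. FPKM counts fragments relative to the length of the gene and the depth of the library. A difference is log2(FPKM + 1) in IM minus that in CTR. It is called higher or lower at 1 log2 unit, or 2-fold on that scale, and a smaller size of 0.5 log2 unit, or 1.41-fold, is counted beside it.

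BCR-ABL is a tyrosine kinase that is always active and feeds the RAS and ERK, PI3K and AKT, and JAK and STAT5 pathways. STAT5 turns on feedback and survival genes such as CISH and PIM1, while AKT keeps the FOXO transcription factors out of the nucleus and so holds their target genes down. Growth signalling also raises MYC activity, which drives ribosome assembly, nucleotide synthesis and division. Imatinib occupies the ATP site of the ABL kinase and blocks its activity.

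The depth behind these values was about 14.5 M fragments (M is 1e+06) for CTR, 15.8 M for IM, 14.7 M for DSF and 12.4 M for IM-DSF, as recovered from single-exon genes. Intervals in brackets are 95% intervals of a ratio of 2 FPKM values from approximate fragment numbers, and they cover counting error only; PCR copies make them too narrow. Some granulocyte and monocyte genes were abundant and others were low. MPO, a granule enzyme gene, had 2.49 FPKM in CTR, the granule gene BPI 0.0202 and the monocyte gene CD14 0.161. Of 25 monocyte and macrophage genes 16 passed the filter, and of 18 later neutrophil genes 5 did. The granule protease genes PRTN3, ELANE and CTSG had 769, 372 and 174 FPKM in CTR, and the myeloid transcription factors CEBPA and SPI1 had 153 and 58.1. Of 20 erythroid markers 3 passed the filter: the carbonic anhydrase CA2 (395 FPKM untreated, 249.5 with IM), the transferrin receptor TFRC (42.1 and 28.6) and the membrane protein GYPC (9.70 and 10.3). CA2 and TFRC were thus lower in IM, at -0.66 and -0.54 log2 units, but at 0.12 and -0.07 in IM-DSF against DSF. Another 13 were listed at 0 in all 4 libraries, among them the globins HBA1, HBA2, HBG1 and HBG2, and KIT, PROM1 and MECOM of the stem cell markers were likewise listed at 0. CD34, the usual surface marker of stem and progenitor cells, had 0.00554 FPKM in CTR and was listed at 0 in the other libraries. Of 12 megakaryocyte markers 2 passed, the transcription factors FLI1 (8.04 FPKM in CTR) and NFE2 (2.12). Of 12 lymphoid markers only NKG7 passed the filter (11.4 FPKM untreated and 11.9 with IM), as did only PECAM1, an overlapping gene, of 10 epithelial and fibroblast markers, while 0 of 11 mast cell, eosinophil and basophil markers did. Levels of the drug's target were close between the libraries: ABL1 had 34.0 FPKM untreated and 35.1 with IM, and BCR, which overlaps other genes, had 4.22 and 3.99.

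By the size rule 267 of the 11004 genes (2.43%) differed, 169 of them (1.54%) higher in IM and 98 (0.891%) lower. At 0.5 log2 unit the counts were 1032 (9.38%) and 624 (5.67%). The median over all genes was 0.02, with 5844 genes (53.1%) above CTR and 5157 (46.9%) below it by any amount. In bulk RNA, fewer cells of a type and less RNA per cell cannot be told apart. IM-DSF against DSF shares no library with this comparison. There 146 genes were higher (1.33%) and 115 lower (1.05%), and 843 (7.66%) and 762 (6.92%) passed 0.5 log2 unit. Of the 169 genes higher in IM, 90 (53.3%) were at least 0.5 log2 unit higher in IM-DSF than in DSF, and 20 (11.8%) were at least that much lower. Of the 98 lower genes, 34 (34.7%) were at least 0.5 log2 unit lower there and 6 (6.1%) higher. Both libraries with IM lay above both without it for 3556 of all genes (32.3%) and below for 3081 (28%). Among the 169 and the 98 this held for 128 (75.7%) and 71 (72.4%), shares that the choice by IM against CTR itself raises.

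**Figure D1:**
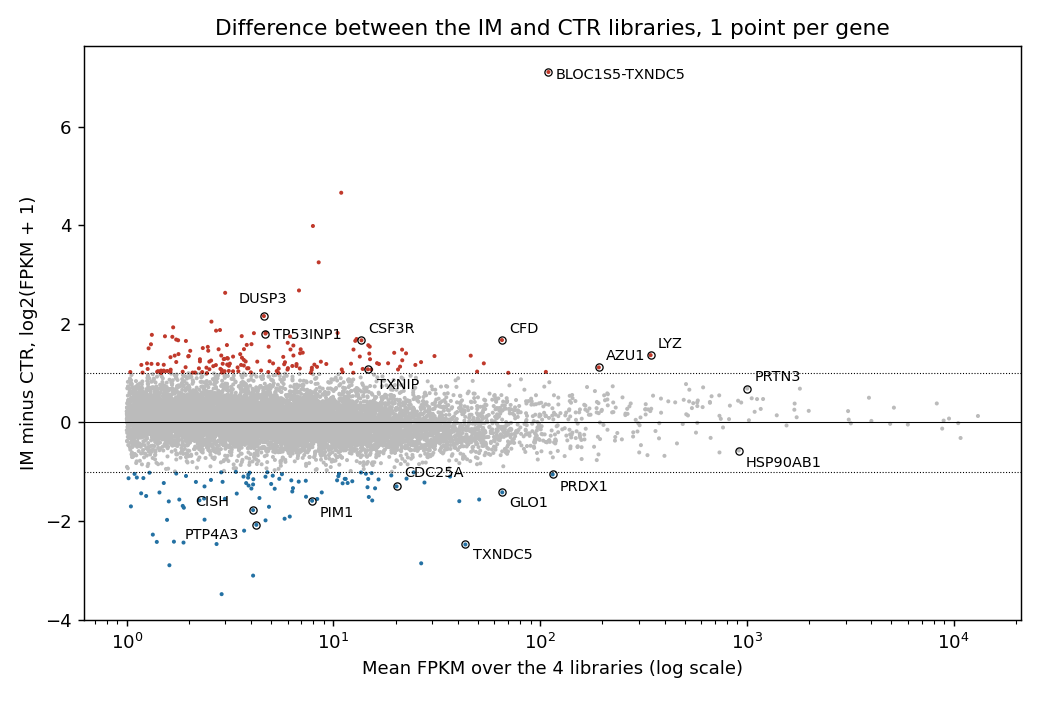
Each point is a gene, placed by its mean FPKM over the 4 libraries (log scale) and by the IM minus CTR difference in log2(FPKM + 1). Red points are the 169 genes at or above 1, blue points the 98 at or below -1, and LYZ, AZU1, PRDX1 and GLO1 lie among the abundant genes past these dotted lines.

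STAT5 target genes were lower in IM, with CISH, PIM1 and ID1 past the size rule, while most of the others were close to CTR. CISH, an SH2 protein that feeds back on cytokine receptors, had 8.18 FPKM untreated, 1.68 with IM, 4.74 with DSF and 1.74 with both. Its ratio of IM to CTR was 0.205 (0.169 to 0.248), and both libraries with IM lay below both without. PIM1, a survival kinase, had 16.0, 4.67, 8.18 and 2.63 FPKM in the same order, with both IM libraries again the lowest. ID1, which holds back differentiation factors, was at 0.4003 times CTR (0.293 to 0.542). Of the 11 STAT5 targets past the filter, 10 were below CTR (46.9% of all genes were). Among the 11, 3 were lower by at least 1 log2 unit (0.891% of all genes) and 5 by at least 0.5 (5.67%). Both IM libraries lay below both others for 8 of the 11 targets (28% of all genes). Their median was -0.15 against a mean of -0.59, since the serine kinases PIM2 (-0.09) and PIM3 (-0.14, overlapping), the survival gene BCL2L1 (-0.09) and the feedback gene SOCS2 (-0.14) differed little. SOCS3, a second feedback gene, was at -0.61 on the log2 scale, and it passed the filter only through the libraries without IM. Over all 16 targets, filtered or not, 12 were below CTR and 1 above, with the same median. The cytokine receptor gene IL2RA and the cytokine LIF were listed at 0 in both libraries.

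The CISH promoter is shown because CISH had the lowest value of the STAT5 list and its promoter carries 4 matches to the STAT motif TTCNNNGAA. The window runs from 250 bases before to 50 after the RefSeq start, on GRCh38.p14, and reads 5′ to 3′ on the gene's strand; capitals mark the motif matches.
CISH, chr3:50611725-50612024, minus strand: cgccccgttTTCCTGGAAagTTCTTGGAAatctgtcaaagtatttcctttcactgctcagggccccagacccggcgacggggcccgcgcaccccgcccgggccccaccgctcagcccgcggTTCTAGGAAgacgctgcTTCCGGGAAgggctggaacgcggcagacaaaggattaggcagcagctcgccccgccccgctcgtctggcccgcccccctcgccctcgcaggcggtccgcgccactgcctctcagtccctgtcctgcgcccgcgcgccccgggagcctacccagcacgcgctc
The matches begin -241, -230, -129 and -112 bases from the start. Of 27305 promoters of the same length in the table, 2152 (7.88%) hold at least 1 match, and of 7775 promoters of genes past the filter 482 (6.2%) do. CISH was the only 1 of 8 STAT5 targets with a promoter in the table that had a match. Among promoters of genes past the size rule, 5 of 51 (9.8%) of the lower and 8 of 97 (8.25%) of the higher held it.

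FOXO target genes were mostly higher in IM and had a median of 0.68 log2 units past the filter and of 0.53 over all 23 members. Of the 19 past the filter, 17 were above CTR, 11 by at least 0.5 log2 unit and 5 by at least 1. Over all genes these shares were 53.1%, 9.38% and 1.54%. Both IM libraries lay above both others for 16 of the 19 (32.3% of all genes). TXNIP, which binds thioredoxin and limits glucose uptake, had 8.60 FPKM untreated, 19.3 with IM, 11.6 with DSF and 19.1 with both. CCNG2, cyclin G2, a cyclin linked to cell cycle arrest, had 1.45, 6.29, 2.42 and 5.06 FPKM, so that the 2 libraries with IM were the highest. SESN3, a sestrin that restrains mTORC1, was 3.13-fold higher (2.63 to 3.74) and TP53INP1, an autophagy and p53 cofactor, 5.60-fold (4.51 to 7.01). The antiproliferative gene BTG1 (1.13 log2 units), which overlaps another gene, completed the 5. Next came the ubiquitin ligase subunit FBXO32 (0.81), which passed the filter only through the libraries with IM, the insulin receptor substrate IRS2 (0.76) and the mitochondrial quality kinase PINK1 (0.72, overlapping). BCL2L11, the death-promoting protein BIM, had 3.99 FPKM untreated and 7.32 with IM, but 1.64 in DSF and 1.02 in IM-DSF. For BCL2L11 the pairs went opposite ways. CITED2 and GADD45A were the 2 members below CTR, at -0.31 and -0.10. The list median in IM-DSF against DSF was 0.52, with 16 of 19 above DSF (51.7% of all genes were).

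ERK feedback and immediate early genes were mixed. Of 11 past the filter 8 were below CTR (46.9% of all genes were). Among the 8, 3 (DUSP5, ETV4 and FOSL1) passed only through the libraries without IM. Over all 20 members 14 were below CTR and 4 above, with a median of -0.20. Only FOSL1, a subunit of AP-1, passed the size rule, at 0.329 times CTR (0.212 to 0.498). The ETS factor genes ETV4 and ETV5, both induced by ERK, were at -0.64 and -0.58 (ETV5 overlaps another gene), and SPRY2, a RAS pathway inhibitor, at -0.23. DUSP6, the ERK phosphatase, had 4.11 FPKM untreated and 3.92 with IM. FOS was at 0.56 and MYC, with 1.17 and 1.27 FPKM, was near CTR. The signalling chain itself differed little: of 24 adaptor and kinase genes none passed the size rule, and their median was 0.04. The 3 highest were the tyrosine kinase FES (0.89), JAK2 (0.60, overlapping) and STAT5A (0.58), and the lowest was PTPN11, the phosphatase SHP2 (-0.31).

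**Figure D2:**
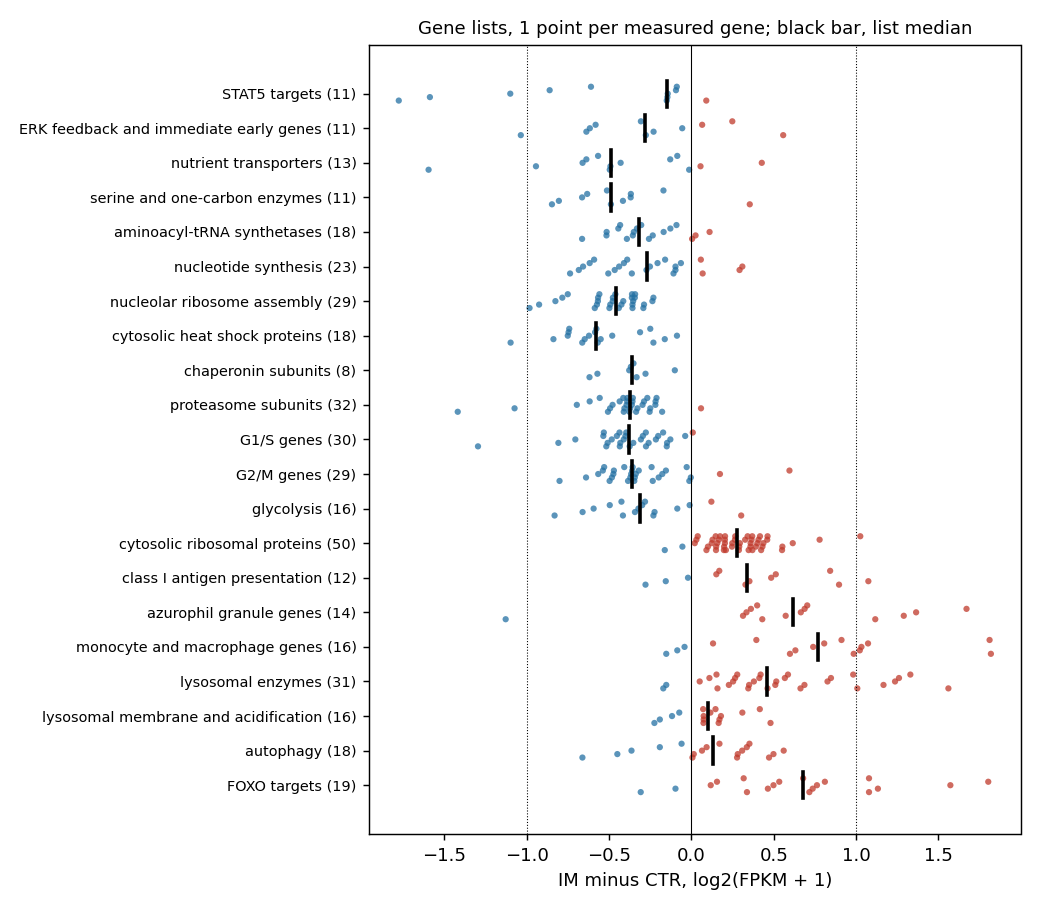
Each point is a gene of the list that passed the filter, placed by its IM minus CTR difference in log2(FPKM + 1), and the black bar is the list median; the number of genes is in brackets after the list name. Growth, chaperone and division lists lie mostly left of 0, and the granule, monocyte, lysosomal enzyme and FOXO lists mostly right of it.

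Genes of growth and biosynthesis were lower as groups, mostly by less than the size rule. All 29 nucleolar ribosome assembly genes were below CTR (46.9% of all genes were), with a median of -0.46. By at least 0.5 log2 unit, 10 of them were lower (5.67% of all genes). The share below CTR differed by level: it was 66.1% in protein-coding genes averaging 20 to 100 FPKM (median -0.14). At 1 to 5 FPKM it was 39.4%, at 5 to 20 it was 52.8% and at 100 or more 50.7%. The growth, chaperone, proteasome and cell cycle lists were not matched for level. In 28 of the 29 nucleolar genes both IM libraries lay below both others, as in 28% of all genes. PPAN (-0.98), which overlaps another gene, and RRP9 (-0.92), a protein of nucleolar small ribonucleoproteins, were the lowest. LYAR, a nucleolar growth regulator, had 55.1 FPKM untreated, 30.7 with IM, 47.2 with DSF and 29.6 with both. The summed level of the 29 was 1197 FPKM untreated and 853 with IM. The cytosolic ribosomal protein genes did not share this direction: 48 of 50 were above CTR, with a median of 0.28. In IM-DSF against DSF 30 of the 50 were above DSF, where 51.7% of all genes were, and the median was 0.04. Many of these genes have near-identical pseudogenes, so their values are uncertain.

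The E-box CACGTG, the sequence that MYC and its relatives bind, was matched in the promoters of 10 of 24 nucleolar assembly genes (41.7%), against 870 of 7775 genes past the filter (11.2%) and 2030 of all 27305 promoters (7.43%). The genes with a match were WDR43, RRP9, NOP14, BYSL, NOP2, UTP20, UTP4, MYBBP1A, FBL and PES1, with differences from -0.92 to -0.29; WDR43, NOP2 and UTP4 overlap other genes. Among promoters of genes past the size rule the E-box was in 4 of 51 (7.84%) of the lower and 10 of 97 (10.3%) of the higher genes. The RRP9 promoter is printed because RRP9 was the lowest of the 10; capitals mark the E-box, which begins -5 bases from the start.
RRP9, chr3:51941855-51942154, minus strand: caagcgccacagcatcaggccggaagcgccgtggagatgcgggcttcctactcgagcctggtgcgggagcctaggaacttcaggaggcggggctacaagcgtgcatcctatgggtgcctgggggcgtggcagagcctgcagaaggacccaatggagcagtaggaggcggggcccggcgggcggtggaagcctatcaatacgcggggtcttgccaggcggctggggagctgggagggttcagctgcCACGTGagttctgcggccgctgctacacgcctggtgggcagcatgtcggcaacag
A match is a run of letters and not a measured binding site.

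Supply of amino acids, one-carbon units and nucleotides followed the same direction. Over all genes 46.9% were below CTR, and in 28% both IM libraries lay below both others. SLC7A5, the large neutral amino acid carrier, had 69.7 FPKM untreated and 22.4 with IM, but it overlaps another gene. SLC1A5, the glutamine carrier, which does not, had 77.2 FPKM untreated, 49.3 with IM, 69.0 with DSF and 30.01 with both, the IM libraries again lowest. Of 13 nutrient transporters 11 were below CTR (median -0.49), and SLC43A1, another neutral amino acid carrier, was above it (0.43). Of 11 serine and one-carbon genes 10 were below CTR (median -0.49) and all 10 had both IM libraries lowest. MTHFD2, a mitochondrial folate enzyme, was at 0.693 times CTR (0.653 to 0.736). Aminoacyl-tRNA synthetases were below CTR in 15 of 18 cases (median -0.32), led by the glycyl enzyme GARS1 (-0.66). Of 23 nucleotide synthesis genes 19 were below CTR (median -0.27). CTPS1, CTP synthase, had 38.4 and 23.6 FPKM, and the ribonucleotide reductase subunit RRM2, an overlapping gene, 32.5 and 20.3. PAICS, a purine enzyme, was at 0.06. In the polyamine list ODC1, ornithine decarboxylase, was at -0.71 and SAT1, the acetyltransferase that degrades polyamines, at 0.66; ODC1 overlaps another gene. Of 16 glycolysis genes 14 were below CTR, with LDHA, lactate dehydrogenase A, at -0.83 (overlapping) and GAPDH at -0.32.

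Chaperones and the proteasome were lower almost without exception. All 18 genes of the cytosolic heat shock list past the filter, which also holds HSPD1 of mitochondria and SERPINH1 of the endoplasmic reticulum, were below CTR, 12 by at least 0.5 log2 unit, and the median of -0.58 was the lowest of the lists with at least 10 genes past the filter. Over all genes 46.9% were below CTR and 5.67% by at least 0.5 log2 unit. The summed level of the heat shock list was 2459 FPKM untreated, 1640.4 with IM, 2072 with DSF and 1422 with both. HSP90AB1, the constitutive HSP90, had 1137 FPKM untreated and 767 with IM, and HSPD1, the mitochondrial chaperonin, 256 and 163. STIP1, which links HSP70 to HSP90, was at 0.645 times CTR (0.616 to 0.675). All 8 subunits of the cytosolic chaperonin were below CTR (median -0.36), from CCT3 at -0.62 to CCT7 at -0.10. Of 32 proteasome genes 31 were below CTR (median -0.37), and 27 had both IM libraries lowest (28% of all genes did). PSME3, an activator cap, and PSMB6, a catalytic subunit, passed the size rule at -1.42 and -1.07.

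Heat shock factor binds inverted repeats of the pentamer in GAANNTTC, and a match was found in the promoters of 6 of 17 heat shock genes (35.3%), against 347 of 7775 genes past the filter (4.46%) and 1875 of all 27305 (6.87%). Of the genes past the size rule, 3 of 51 lower (5.88%) and 1 of 97 higher (1.03%) held it. The 6 were HSPA1B, HSPB1, DNAJA1, SERPINH1, CHORDC1 and HSPA8, of which HSPA1B and HSPA8 overlap other genes. They span the list, from -1.10 in SERPINH1 to -0.09 in CHORDC1, which has 3 matches. The SERPINH1 promoter is shown as that of the lowest gene of the list, with its match in capitals, -71 bases from the start.
SERPINH1, chr11:75562003-75562302, plus strand: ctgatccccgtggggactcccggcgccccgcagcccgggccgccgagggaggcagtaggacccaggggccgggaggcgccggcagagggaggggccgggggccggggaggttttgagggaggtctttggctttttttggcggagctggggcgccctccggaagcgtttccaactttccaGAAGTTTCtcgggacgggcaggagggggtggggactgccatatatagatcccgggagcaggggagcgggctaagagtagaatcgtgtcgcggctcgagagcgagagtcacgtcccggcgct
SERPINH1, the collagen chaperone, had 6.12 FPKM untreated, 2.33 with IM, 3.34 with DSF and 2.90 with both. Its difference was smaller in IM-DSF against DSF (-0.15), where the value without IM was itself low.

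Cell cycle genes were lower by a narrow margin that held across most members. Of 30 G1/S genes 29 were below CTR (median -0.38), and 28 had both IM libraries below both others. Over all genes these shares were 46.9% and 28%. CDC25A, the phosphatase that frees CDK2 for S phase, was the only 1 past the size rule, with 31.3 FPKM untreated, 12.1 with IM, 25.6 with DSF and 11.8 with both. Its ratio was 0.388 (0.357 to 0.422). RFC2, a clamp loader subunit, was at -0.81, while the replication clamp PCNA, an overlapping gene, was at -0.13 and E2F2 at -0.04. Of 29 G2/M genes 27 were below CTR (median -0.36), with the cyclins CCNA2 and CCNB1 at -0.54 and -0.53. AURKB (-0.01) and TTK (0.00), both mitotic kinases, were level. The 2 above CTR were MKI67 (0.17) and the spindle gene NUSAP1 (0.60, overlapping). The inhibitors were not higher as a set: CDKN1B, p27, which overlaps another gene, was at 0.32, CDKN2C, p18, at -0.12, and CDKN1A, p21, failed the filter on the 4-library mean with 1.13 and 1.03 FPKM in CTR and IM.

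Myeloid differentiation genes were higher, granule genes among the most abundant of them. Of 14 azurophil granule genes 13 were above CTR (53.1% of all genes were), and the median was 0.62. By at least 0.5 log2 unit 8 were higher (9.38% of all genes), and by at least 1 it was 4 (1.54%). Together the list held 2258 FPKM untreated, 3684 with IM, 2891 with DSF and 3728 with both, so DSF alone lay between CTR and IM. CFD, complement factor D, a granule protease, had 25.9 FPKM untreated, 84.7 with IM, 48.9 with DSF and 102 with both. The bactericidal protein AZU1 had 111, 241, 169.5 and 247 FPKM, and both IM libraries were again above the others. The proteases PRTN3 (769 and 1239 FPKM in CTR and IM) and CTSG (174 and 260.0) were higher in IM than in CTR. In IM-DSF against DSF they were at -0.04 and -0.23. The list median there was 0.15, with 9 of 14 above DSF (51.7% of all genes were). CST7, cystatin F, was the exception and passed the filter only through the libraries without IM, at 0.214 times CTR (0.0794 to 0.497).

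Monocyte genes were mostly higher in IM, but part of that count comes from the filter. Of 16 past it 13 were above CTR (53.1% of all genes were), with a median of 0.77. By at least 0.5 log2 unit 11 were higher (9.38% of all genes), and by at least 1 it was 5 (1.54%). CSF1R, OLR1 and FGL2 passed only through the libraries with IM. Among the 13 members that averaged 1 FPKM or more over CTR and DSF, 10 were above CTR, 8 by at least 0.5 log2 unit and 3 by at least 1. Over all 25 members 20 were above CTR and the median was 0.39. MS4A6A, a membrane protein of monocytes, had 0.929 FPKM untreated, 5.81 with IM, 2.78 with DSF and 9.31 with both. TYROBP, the adaptor of activating receptors, had 2.86, 6.65, 3.55 and 8.88 FPKM. CD4 (0.91), CD68 (0.81, overlapping) and FCGR1A, the high-affinity IgG receptor (0.63), were past 0.5 log2 unit. CSF1R, the macrophage growth factor receptor, had 0.434 FPKM untreated and 1.94 with IM. The costimulatory gene CD86 was higher by ratio (3.17, 1.47 to 7.57) at a low level of 0.579 FPKM in IM. CD14, the lipopolysaccharide co-receptor, was also low (0.161 and 0.230 FPKM), as was the scavenger receptor CD163 (0.00688 and 0.0126). Of 18 later neutrophil genes only 5 passed the filter, and LTF, LCN2, MMP8 and MMP9, which fill the later granules, were listed at 0 in both libraries. The 5 that passed were all above CTR and included CSF3R, the granulocyte growth factor receptor (5.003 and 18.0 FPKM), and CHI3L1, a chitinase-like protein (12.7 and 25.4).

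The transcription factors of the lineage mostly lay near CTR. CEBPD was the only 1 of 13 past the size rule, with 16.5 FPKM untreated, 39.8 with IM, 22.2 with DSF and 27.6 with both. CEBPA (0.26), SPI1 (0.27) and IRF8 (0.25, overlapping) were slightly above CTR, and GFI1 (-0.05) and CEBPE (-0.15) slightly below. Of 7 genes of the phagocyte NADPH oxidase 5 were above CTR (53.1% of all genes were) and 2 below. Their median was 0.31, and 0.07 in IM-DSF against DSF. CYBB, the catalytic part, which overlaps another gene, was the highest at 0.88, and its partner CYBA was at 0.51. NCF1 was at -0.43 and passed the filter only through the libraries without IM, and RAC2 was at -0.03. FLT3, a receptor kinase of progenitors, had 10.4 FPKM untreated, 20.5 with IM, 13.9 with DSF and 20.4 with both. It was the only 1 of 10 stem and progenitor markers past 0.5 log2 unit. In class I antigen presentation 9 of 12 genes were above CTR (median 0.34), where 53.1% of all genes were. TAPBP, the peptide loading factor tapasin, had 11.8 and 25.9 FPKM, and HLA-E 30.8 and 56.0. The homing receptor CXCR4 was at 0.51, and the other 10 adhesion genes past the filter lay within 0.5 log2 unit of CTR.

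**Figure D3:**
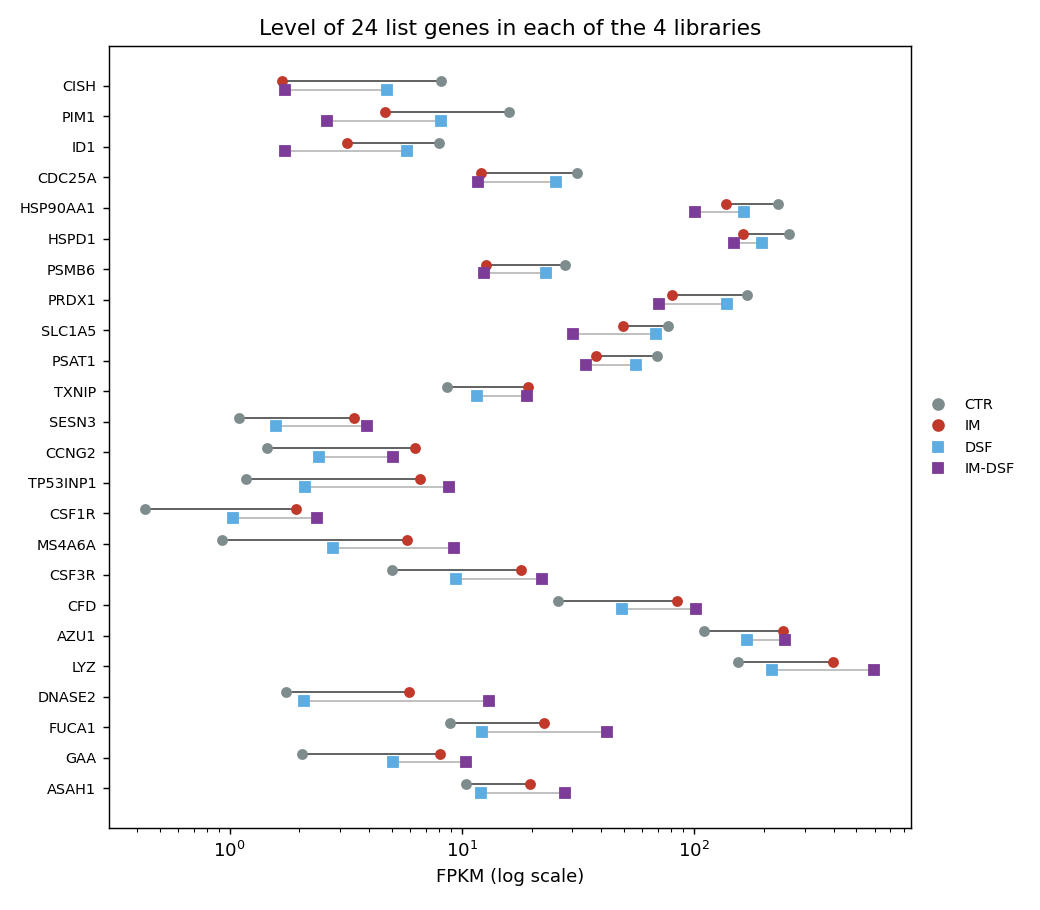
FPKM (log scale) of 24 list genes in each library; circles joined by a dark line are CTR and IM, squares joined by a light line are DSF and IM-DSF. In each of the 24 rows both libraries with IM lie on the same side of both libraries without it. The 24 were picked by hand, so this is no result about the lists. BCL2L11, PRTN3 and CTSG, which do not separate in this way, are not drawn. Over all genes past the filter both IM libraries lay above both others in 32.3% and below in 28%.

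Lysosomal enzyme genes were mostly higher in IM, while genes of the lysosomal membrane lay near CTR. Of 31 enzyme genes past the filter 29 were above CTR, 15 by at least 0.5 log2 unit and 6 by at least 1, with a median of 0.46. Both IM libraries lay above both others for 27 of 31 (32.3% of all genes). Of all genes 53.1% were above CTR, 9.38% by at least 0.5 log2 unit and 1.54% by at least 1. GAA, the acid alpha-glucosidase that degrades glycogen, had 2.06 FPKM untreated, 8.03 with IM, 5.04 with DSF and 10.5 with both. ASAH1, acid ceramidase, had 10.4, 19.6, 12.2 and 27.9 FPKM. The precursor of the saposins, PSAP, had 39.7 FPKM untreated and 80.8 with IM, and the peptidase TPP1 13.6 and 31.7; both overlap another gene. CTSC, the protease that activates granule proteases, and CTSS were the 2 below CTR, at -0.17 and -0.15. In the 16 genes of the lysosomal membrane, proton pump and their regulators none reached 0.5 log2 unit and the median was 0.10. The highest were the proton pump accessory protein ATP6AP1 (0.48) and TFE3, a transcription factor of lysosomal genes (0.42). Of 18 autophagy genes 13 were above CTR (median 0.13), but MAP1LC3B, which coats autophagosomes, had 3.27 FPKM untreated and 1.70 with IM.

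The TFEB family binds the CLEAR element, whose core TCACGTGA contains an E-box. The core was matched in 2 of 18 lysosomal enzyme promoters (11.1%), those of GAA and CTSA, against 172 of 7775 genes past the filter (2.21%) and 283 of all 27305 (1.04%). Of the genes past the size rule, 0 of 51 lower and 3 of 97 higher (3.09%) held it. GAA had the largest difference of the list and its promoter holds 2 matches, which begin -77 and -32 bases from the start and are in capitals.
GAA, chr17:80101331-80101630, plus strand: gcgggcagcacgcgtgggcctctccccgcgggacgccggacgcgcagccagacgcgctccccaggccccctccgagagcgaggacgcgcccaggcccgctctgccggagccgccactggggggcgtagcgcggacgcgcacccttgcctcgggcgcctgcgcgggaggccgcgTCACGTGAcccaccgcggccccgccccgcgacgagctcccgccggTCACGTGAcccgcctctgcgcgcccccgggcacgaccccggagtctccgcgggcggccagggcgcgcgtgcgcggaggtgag
CTSA, the protective protein of lysosomal galactosidase, was at 0.41 log2 units with 1 match. In 16 of the 18 promoters these letters were not found in this window.

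The 30 genes with the largest differences, among protein-coding genes that overlap no other gene on the same strand, held both list members and genes of other kinds. DUSP3 (ENSG00000108861; chromosome 17, 43766121 to 43778988), a dual-specificity phosphatase, was the highest, with 1.69 FPKM untreated and 11.0 with IM. It had 2.38 in DSF and 3.38 in IM-DSF, a difference of 0.37 log2 unit. PTP4A3 (chromosome 8, 141391993 to 141432454), a membrane-bound tyrosine phosphatase, was the lowest, with 7.02, 0.903, 4.73 and 4.30 FPKM in the same order. IM alone was the low library for PTP4A3, as it was for the spindle helicase ERCC6L (3.72, 0.206, 3.20 and 2.39 FPKM) and the modifier SUMO3 (62.4, 20.5, 63.0 and 56.8). GRPEL2, a mitochondrial import cofactor, and CORO1C, an actin regulator, had ratios of 0.208 and 0.287 in IM but log2 differences of only -0.39 and -0.28 with DSF. In other genes CTR alone stood apart. ALAD, a heme synthesis enzyme, had 1.68 FPKM in CTR and 7.98, 7.14 and 7.88 in IM, DSF and IM-DSF. LIMS1, a focal adhesion adaptor, had 5.24 in CTR and 1.14, 1.30 and 1.79 in the others, and the zinc finger gene ZNF696 had 4.40 against 0.779, 0.608 and 0.607. The mRNA decapping enzyme DCP2 was likewise lowest in CTR (1.89 FPKM, against 6.05 with DSF), as was the F-box gene FBXL20 (0.564 and 2.24).

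Of the 15 highest genes, 8 were also at least 0.5 log2 unit higher in IM-DSF than in DSF, 5 lay within 0.5 and 2 were lower by more. Over all genes 7.66% were at least 0.5 log2 unit higher in IM-DSF than in DSF and 6.92% at least that much lower. The 8 were MS4A6A, TP53INP1, CFD, CSF3R, LRRC14B, GAA, CCNG2 and YPEL5. Of the 15 lowest genes, 6 were at least 0.5 log2 unit lower there and 9 lay within 0.5. The 6 were CISH, PIM1, ZNF184, PSME3, GLO1 and RDH10, a retinol dehydrogenase that had 26.1 FPKM untreated, 9.76 with IM, 17.8 with DSF and 9.93 with both. TRIB3, a stress-induced pseudokinase, was at 0.325 times CTR (0.275 to 0.382), with 5.52 FPKM in DSF and 4.69 in IM-DSF. It stood apart from the rest of the ATF4 list, whose median was 0.05, with DDIT3, the factor CHOP, at 0.30 (overlapping) and ATF4 itself at -0.36.

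**Figure D4:**
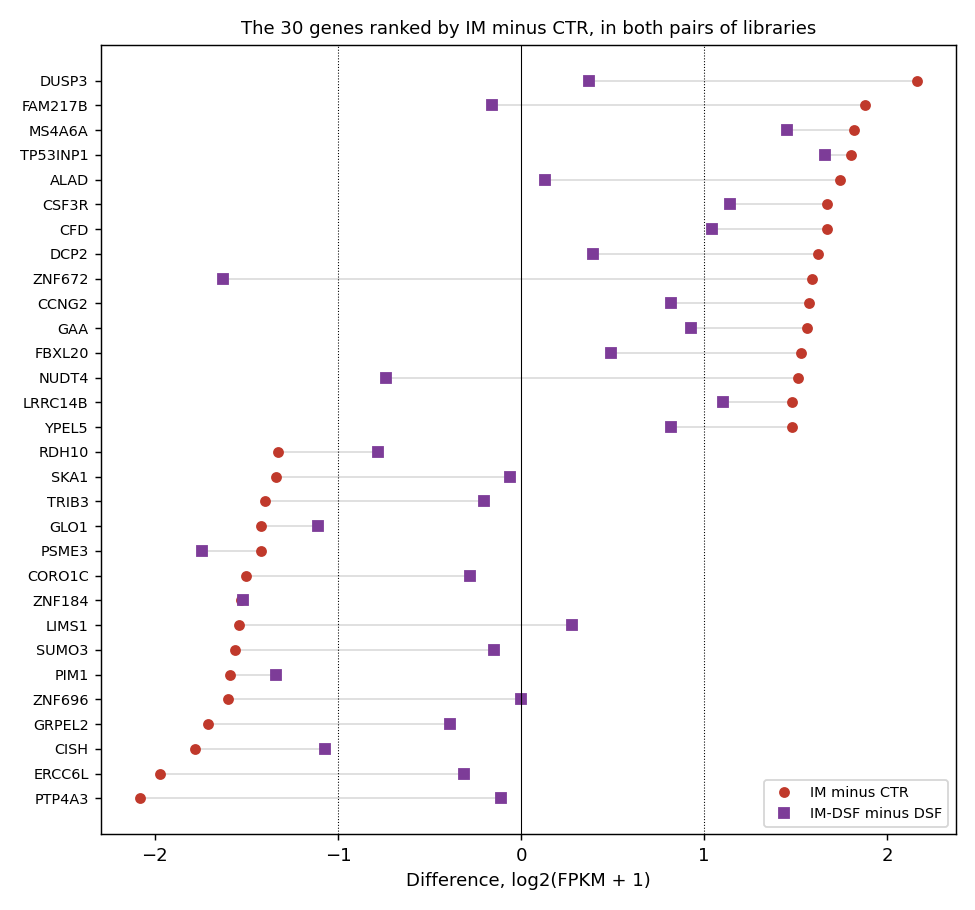
The 15 highest and 15 lowest genes by IM minus CTR (circles), with IM-DSF minus DSF for the same gene (squares), both in log2(FPKM + 1). CISH, PIM1, MS4A6A and TP53INP1 lie past 1 in both pairs, whereas the squares of PTP4A3, ZNF696 and SKA1 lie near 0.

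Long noncoding genes leaned toward IM. Of 591 past the filter 431 were above CTR, 29 by at least 1 log2 unit against 6 below by as much, and their median was 0.24. Over all genes 53.1% were above CTR, 1.54% by at least 1 log2 unit, and 0.891% were below by as much. Protein-coding genes of low level (mean of 1 to 5 FPKM) had a median of 0.08, and long noncoding genes of the same level 0.24. In IM-DSF against DSF the long noncoding median was 0.18. LINC00926, with 20.8 FPKM untreated, 54.8 with IM, 36.8 with DSF and 72.1 with both, was the most abundant of the 5 highest genes without a clone-style name. Among the 5 lowest without such a name were host genes of small nucleolar RNAs, of which only SNHG19 passed the size rule: SNHG19 (20.8 and 7.77 FPKM in CTR and IM), SNHG26 (2.75 and 1.53) and SNHG9 (1.85 and 1.02). All 3 overlap another gene on the same strand. SNHG9 rested on about 15 fragments in CTR and 9 in IM, with a ratio of 0.551 (0.212 to 1.34). Read-through genes, which join neighbouring genes, held 12 of the 169 higher and 5 of the 98 lower genes although only 58 passed the filter, and their values are uncertain because they share exons with those neighbours.

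Among protein-coding genes averaging 100 FPKM or more, the read-through gene BLOC1S5-TXNDC5 had the largest difference. Its untreated value is listed at 0, against 137 FPKM with IM, 163 with DSF and 139 with both. TXNDC5, the disulfide isomerase gene it overlaps, named after its values were seen, had 115 FPKM untreated against 19.9, 20.8 and 18.3. CTR alone stood apart in both, in opposite directions. LYZ, lysozyme, came next, with 154 FPKM untreated, 399 with IM, 217 with DSF and 599 with both. ZFP36L2, which speeds the decay of AU-rich mRNAs, had 75.2, 133, 96.3 and 138, higher in both IM libraries. The lowest protein-coding gene of this abundance was PRDX1, a peroxiredoxin that removes hydrogen peroxide, with 169 FPKM untreated, 80.8 with IM, 139 with DSF and 71.0 with both, a ratio of 0.479 (0.453 to 0.506) in IM.

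Redox genes went both ways. The NRF2 target NQO1, a quinone reductase, was at -1.02 log2 units in IM but at -0.12 in IM-DSF against DSF. The reductases TXNRD1 (-0.56, overlapping) and GSR (-0.56) were lower in IM too. GPX1, the cytosolic glutathione peroxidase, was higher, at 0.67, as was the ferritin light chain FTL (3235 and 4581 FPKM), while the heavy chain FTH1 had 66.6 and 45.7. GPX4 was level, at 1.01 times CTR (0.897 to 1.13). The list of 20 ferroptosis and glutathione genes had 14 below CTR (46.9% of all genes were) and a median of -0.22. AIFM2, among the 14, passed the filter only through the libraries without IM. Over all 21 members 15 were below CTR and the median was -0.15. With IM in the presence of DSF the median of the 20 was 0.00. There FTH1 (0.67) and the cystine carrier SLC7A11 (0.70, against -0.49 in IM) had positive differences.

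Survival genes showed few differences. Of 13 BCL2 family genes none passed the size rule, and BMF (0.94) and BCL2L11 (0.74), both BH3-only death genes, were the highest. BCL2 itself, an overlapping gene, was at -0.14, MCL1, also overlapping, at 0.09 and PMAIP1, NOXA, at -0.45. Of 12 p53 targets past the filter only TP53INP1 passed the size rule, and MDM2 (-0.31, overlapping) and BAX (-0.05) did not follow it. In the sterol list HMGCS1, which opens the mevalonate pathway, had 15.7 FPKM untreated, 6.56 with IM, 11.1 with DSF and 11.96 with both. TNF, the inflammatory cytokine, was at 0.288 times CTR (0.195 to 0.418), while the NF-kB subunits NFKB1 (-0.05) and RELA (0.20) were near it. Interferon-stimulated genes had a median of 0.19 over the 15 past the filter, of which IFIT3 passed only through the libraries with IM. Over all 28 members the median was 0.05. SAMHD1, a dNTP hydrolase, was at 45.3 and 77.0 FPKM. Of the drug transporters ABCB1 (0.0140 and 0.0256 FPKM) and ABCG2 (listed at 0 in CTR) did not pass the filter.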

How the data were processed

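The 4 value columns hold FPKM as deposited by the authors, per the file headers. The submitters' processing notes list HISAT2 2.0.4 and GRCh38.p14; which counter, annotation and gene lengths gave the FPKM, and whether strand was used, is not given in the sources used here. Fragments were approximated as FPKM times the union exon length of GENCODE 29, which matched 50111 of 50868 identifiers, times a denominator at which single-exon genes below 100 fragments gave whole numbers within 0.05 for 95.7% (CTR) to 96.2% (IM) of values. For genes with several exons only 29.7% to 32.1% were whole, so no count test was run. Ratio intervals are exact conditional binomial at 95%. Analyses used Python 3.11.15, pandas 2.3.3 and scipy 1.17.1, and were tested on simulated data.

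No test was possible with 1 library per group. The members, the 45 gene lists, the size rules and the alternatives were chosen with earlier results of these data known. Where a symbol was on several rows, the row with the highest mean was used. Named genes are the 15 highest and 15 lowest protein-coding genes without same-strand overlap, clone-style or read-through names; up to 4 per list by absolute difference; the 5 highest and lowest long noncoding genes without clone-style names; the 5 highest and lowest among coding genes averaging 100 FPKM or more; and GPX4, BCR and ABL1. Further list members are named as contrasts and were chosen after their values were seen. Promoters are RefSeq's, GRCh38.p14, matched by symbol, and motifs were searched on both strands. Genes marked as overlapping share a strand and position with another gene, so their values are uncertain.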

Additional observations from a re-analysis of the deposited data

Results flagged for a closer look

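In 5 of the 197 genes named by rule the IM to CTR and IM-DSF to DSF differences were both at least 0.5 log2 unit and of opposite sign. With 1 library per group, this difference between the pairs was not tested. List members named only as contrasts were not among the 197, and of these FTH1 also went opposite ways. ZNF672, a zinc finger gene, was at 1.59 in IM and -1.63 with DSF, and NUDT4, a nudix hydrolase, at 1.51 and -0.74. The antisense gene GABPB1-AS1 was at 1.75 and -1.35, but it overlaps another gene. RPL37 was at 1.03 and -0.98, and RPL29 at -0.68 and 1.06; both are ribosomal protein genes with near-identical copies.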

How the results depend on the processing

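The counts of genes past a size rule depended on the scale and on which genes entered. With a pseudocount of 0.1, 432 genes were higher and 168 lower by 1 log2 unit, and 1617 were higher by 0.5. Rescaled to TPM, 317 were higher and 158 lower by 1, and 1021 lower by 0.5. With a mean of at least 5 FPKM the counts were 70 and 44 at 1 and 385 and 387 at 0.5, and restricted to coding genes free of same-strand overlap 67 and 45, and 457 and 337; fewer genes entered both. Dropping the filter, or scaling by trimmed-mean or median-of-ratios factors, kept all 4 counts within 1.5 times. The share of calls that were higher ranged from 59.8% to 72%, and no setting moved the median of all genes by more than 0.1. No list median of at least 0.5 log2 unit took the opposite sign, but that of the erythroid markers, -0.54 over 3 genes, was 0 without the filter. FOXO targets ranged from 0.47 to 0.78, monocyte genes from 0.39 to 0.93, STAT5 targets from -0.61 to -0.14 and the ferroptosis list from -0.47 to -0.03. No paired analysis was possible because each group has 1 library, and leaving out a library leaves no comparison.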

Other observations

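Several myeloid and regulatory genes outside the lists were past the size rule, and were chosen after their values were seen. GRN, the lysosomal growth factor progranulin, had 15.4 FPKM untreated, 40.7 with IM, 24.1 with DSF and 43.0 with both. PLAC8, a gene of myeloid cells, had 28.4, 66.4, 44.8 and 73.9 FPKM, and the toll-like receptor partner LY86 8.85, 21.6, 14.9 and 28.1. In each of these the libraries with IM were the highest and CTR the lowest. CLEC12A, an inhibitory lectin of myeloid cells, was 3.13-fold higher in IM (2.44 to 4.06), and IRF5, an interferon regulatory factor, 3.62-fold (2.76 to 4.80). LMO2, a blood transcription cofactor, had 9.50 FPKM in CTR but 28.2, 23.8 and 24.4 in IM, DSF and IM-DSF, so CTR alone stood apart.

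MYC, with 1.17 FPKM in CTR and 1.27 in IM, had a wide ratio interval (0.736 to 1.61), and it was at -0.37 in IM-DSF against DSF. Genes for 2 MYC antagonists were higher in IM, and no link to MYC or the growth genes was tested. MXD1 had 0.353 FPKM untreated, 3.92 with IM, 2.28 with DSF and 4.27 with both, and MXD4 4.48, 11.9, 7.47 and 10.9; both overlap another gene on the same strand. The T cell receptor gamma constant genes TRGC1 and TRGC2 were transcribed in these myeloid cells and were lower in IM. TRGC1 had 25.3 FPKM untreated, 10.8 with IM, 17.2 with DSF and 12.8 with both, and TRGC2 17.6, 7.17, 14.03 and 10.5. The 2 genes are near-identical, and CD3D, CD3E and CD3G, which mark T cells, had at most 0.134 FPKM in CTR and were listed at 0 in IM.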
